A study of Mus musculus with 2 samples.

Results

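Colon lymphatic endothelial cells (LECs) are the cells to which the deposited annotation of the mouse colon gives the label LECs. They number 217 of the 6018 annotated colon cells, or 3.61% (exact Clopper-Pearson 95% interval 3.15 to 4.11%), and 217 of the 15377 cells of both libraries. Stromal cells of healthy, untreated mice were sequenced as single cells, with 1 library from the colon and 1 from the small intestine. The epithelium was removed with EDTA and DTT, and the tissue was digested with Collagenase XI and Dispase II, for 60 min in the colon and 45 min in the small intestine. Live cells negative for CD45, a leukocyte antigen, and for CD326 (Epcam), an epithelial antigen, were then sorted, and about 16000 were loaded per library on a 10x Genomics droplet controller. The labels do not give strain, age, sex or number of animals.

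Lymphatic capillaries of the gut wall drain interstitial fluid and, in the small intestine, absorbed fat. They also carry leukocytes towards lymph nodes. Their endothelium is set apart from blood endothelium by the transcription factor Prox1, by the receptor Flt4 (VEGFR3) for the growth factor Vegfc, and by Lyve1, a hyaluronan receptor. It secretes Ccl21a, the chemokine that attracts Ccr7-bearing dendritic and T cells.

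A unique molecular identifier (UMI) marks 1 captured RNA molecule. UMIs were summed over the cells of a type and are given as CPM, a gene's UMIs per 1000000 UMIs of that type, with an exact Poisson 95% interval. Ratios of 2 types carry an exact conditional binomial 95% interval. With 1 library per tissue there are no replicates and no test of any difference: intervals and floors cover counting error only, and the labels belong to these same cells, so contrasts between types describe the label. The LECs held 1065387 UMIs, 2.62% of the library, with a median of 4545 UMIs (2016 to 12471) and 1936 genes per cell. They were compared with the 5 other colon types of at least 50 cells: 3631 CD81- FBs, 1105 PDGFRa-hi SEMFs, 875 CD81+ Trophocytes, 125 SMCs, and 53 blood endothelial cells (BECs), which pool the labels CapECs, ArtECs and VenECs. The CD81- FBs, with a median of 6697 UMIs, serve below as the cells that should lack lymphatic genes. Of 21 cell barcodes that occurred in both libraries, 0 were labelled LECs in the colon.

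The upstream windows of 4 of the 6 marker genes are shown first, since these genes stand together in the LECs in the values that follow. Each is the run of 250 bases before the start of the gene in RefSeq, build GRCm38.p6, read on the gene's own strand. Capitals mark 5 short motifs on either strand, none of which overlaps another in these windows: GGAAG, the core of sites for ETS factors, AACAAT for SOX factors, AGATAA for factors of the zinc finger family of Gata2, AGGTCA for nuclear receptors and TAAACA for forkhead factors.
Prox1 (chr1:190170828-190171077, - strand): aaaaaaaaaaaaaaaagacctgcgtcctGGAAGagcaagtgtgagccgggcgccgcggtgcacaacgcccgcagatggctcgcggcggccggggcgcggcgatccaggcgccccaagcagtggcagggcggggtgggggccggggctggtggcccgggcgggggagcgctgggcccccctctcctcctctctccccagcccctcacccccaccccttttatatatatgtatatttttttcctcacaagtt
Flt4 (chr11:49609429-49609678, + strand): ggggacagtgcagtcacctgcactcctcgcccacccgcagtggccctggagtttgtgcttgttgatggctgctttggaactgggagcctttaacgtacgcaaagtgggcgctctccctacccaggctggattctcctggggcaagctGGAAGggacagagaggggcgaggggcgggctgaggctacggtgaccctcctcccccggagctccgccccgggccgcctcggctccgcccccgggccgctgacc
Mmrn1 (chr6:60944067-60944316, + strand): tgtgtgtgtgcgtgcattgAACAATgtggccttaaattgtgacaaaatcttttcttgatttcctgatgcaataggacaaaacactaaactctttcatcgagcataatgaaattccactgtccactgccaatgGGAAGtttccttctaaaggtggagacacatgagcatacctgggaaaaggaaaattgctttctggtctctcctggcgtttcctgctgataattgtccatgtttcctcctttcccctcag
Ccl21a (chr4:42773992-42774241, - strand): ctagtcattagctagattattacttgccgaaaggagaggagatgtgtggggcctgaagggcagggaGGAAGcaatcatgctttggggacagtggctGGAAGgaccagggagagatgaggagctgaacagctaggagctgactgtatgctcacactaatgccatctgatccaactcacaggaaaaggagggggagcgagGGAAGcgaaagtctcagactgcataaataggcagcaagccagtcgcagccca
GGAAG occurred 1 time each upstream of Prox1, Flt4 and Mmrn1 and 3 times upstream of Ccl21a. It was present in 64.1% of 32851 RefSeq windows of this length, so most genes have it. AACAAT occurred 1 time, upstream of Mmrn1, against 9.42% of windows. The other 3 motifs were not found in these 4 windows. RefSeq gives a further start for Prox1, inside the gene, whose window is not shown and holds GGAAG 3 times and TAAACA 1 time. Of the 32851 windows, 3281 hold AGATAA, 4607 hold AGGTCA and 3952 hold TAAACA. A match is a string of letters, not a bound site. Of the 6 markers, 5 had a window in the RefSeq table. In that build Lyve1 lies on chr7:110850607-110862953 and Reln on chr5:21884454-22344705.

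Every LEC had UMIs of at least 4 of the 6 markers. All 6 markers had a UMI in 162 LECs, 5 of 6 in 51 and 4 of 6 in 4. Of 5801 other colon cells, 19 had UMIs of at least 3 markers: 12 CD81- FBs, 6 CD81+ Trophocytes and 1 of the 4 cells labelled Proliferating. Ccl21a was at 12171 CPM in LECs (11963 to 12382) and at 7.08 CPM in CD81- FBs, and 97.3% of the library's Ccl21a UMIs were in LECs. It ranged from 3 to 209 UMIs per LEC (median 56), with a UMI in 100% of LECs and 3.11% of CD81- FBs. Ccl21a has near-identical copies in the mouse genome, and how reads that fit several copies were assigned is not given in the sources used here. Mmrn1, a secreted glycoprotein of platelets and endothelium, was at 5104 CPM in LECs (4969 to 5242) and at 0 UMIs in BECs. Each LEC had 1 to 84 Mmrn1 UMIs (median 23). Lyve1 was at 3462 CPM in LECs (3351 to 3575), with 0 to 44 UMIs per LEC (median 16) and a UMI in 99.5% of them against 0.991% of CD81- FBs. Reln, a large secreted matrix glycoprotein, was at 1399 CPM in LECs (1329 to 1472), with 0 to 27 UMIs per LEC (median 6) and 0 UMIs in BECs.

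The transcription factor and the receptor among the markers had fewer UMIs per cell. Prox1 was at 473 CPM in LECs (433 to 516), with 0 to 13 UMIs per LEC (median 2). It had a UMI in 84.3% of LECs and 0.330% of CD81- FBs, and the next type was SMCs at 3.88 CPM. Flt4 was at 653 CPM in LECs (606 to 704), with 0 to 9 UMIs per LEC (median 3) and a UMI in 91.2% of LECs. The next type for Flt4 was BECs at 18.5 CPM, a log2 ratio of 5.14 (3.91 to 6.77). Each of the 6 markers was highest in LECs.

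Of 15117 genes with at least 20 UMIs in these types, 288 were at least 2-fold higher in LECs than in every other type after adding 10 CPM (1.91%), with BECs the next type for 118 of them. By the same rule 110 genes were lower (0.728%). The counts describe the label and test nothing. Of the tested genes, 30 had at least 90% of the library's UMIs in LECs. The 25 leading genes with a UMI in at least 10% of LECs hold the 6 markers and 19 others of several kinds.

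**Figure D1:**
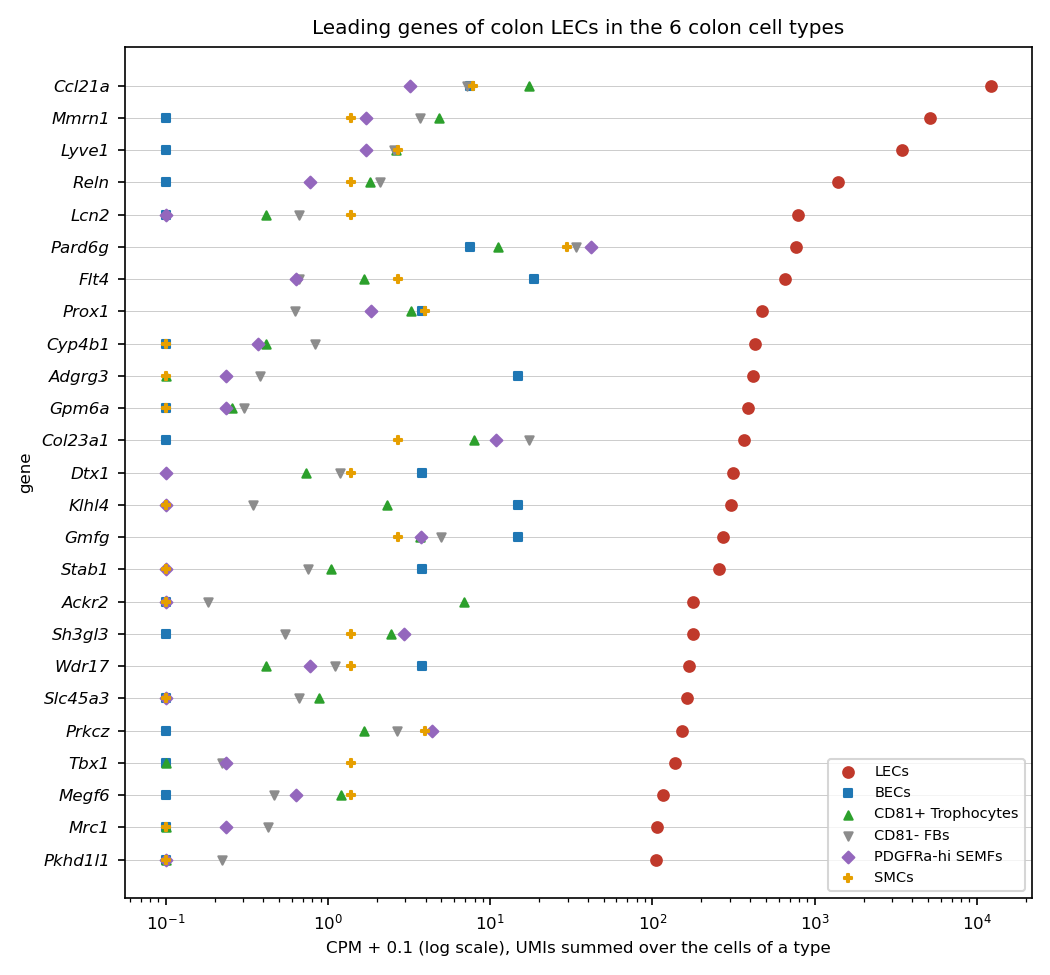
CPM plus 0.1 on a log axis for the 25 leading genes of colon LECs (rows), with 1 symbol per colon cell type; symbols at the left edge are types with 0 UMIs. In each row the LECs stand to the right of the other 5 types, from Ccl21a at 12171 CPM to Pkhd1l1 at 105 CPM.

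Among the leading genes were endocytic and scavenging receptors. Stab1, a scavenger receptor, was at 255 CPM in LECs (226 to 288) and at 3.71 CPM in BECs, the next type. Mrc1, the mannose receptor CD206 better known from macrophages, was at 106 CPM in LECs (87.4 to 128) with 0 UMIs in BECs. Ackr2, a decoy receptor that takes up inflammatory CC chemokines, was at 178 CPM in LECs (154 to 206) and next at 6.75 CPM in CD81+ Trophocytes. Macrophages and other leukocytes also carry Mrc1. Of the 8 listed leukocyte genes, 3 (Ptprc, Cd52 and Tyrobp) had 0 UMIs in LECs. The 8 summed to 19.7 CPM in LECs, 174 CPM in BECs and 93.4 CPM in CD81- FBs. They summed to 18.7 CPM in PDGFRa-hi SEMFs, 16.8 CPM in SMCs and 13.3 CPM in CD81+ Trophocytes. Whether leukocyte RNA contributed to Mrc1 was not tested.

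Other leading genes encode enzymes and secreted proteins. Lcn2, a siderophore-binding lipocalin, was at 791 CPM in LECs (739 to 847) with a UMI in 89.4% of them, and 97.7% of its library UMIs were there. Cyp4b1, a cytochrome P450, was at 430 CPM in LECs (391 to 471), against 0.729 CPM in CD81- FBs, the next type. Dtx1, an E3 ligase of the Notch pathway, was at 312 CPM (279 to 347) in LECs and at 3.71 CPM in BECs.

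Membrane and polarity genes made up much of the rest. Gpm6a, a membrane glycoprotein best known from neurons, was at 387 CPM in LECs (350 to 426), and 98.3% of its library UMIs were there. Adgrg3, an adhesion G protein-coupled receptor, was at 418 CPM in LECs (380 to 458) and at 14.8 CPM in BECs. Pard6g, a cell polarity adaptor, was at 765 CPM in LECs (713 to 819) and at 42.0 CPM in PDGFRa-hi SEMFs, the next type. Prkcz, the atypical protein kinase C that binds Par6 proteins, was at 153 CPM in LECs (130 to 178) and next at 4.30 CPM in PDGFRa-hi SEMFs. Col23a1, a transmembrane collagen, was at 368 CPM in LECs (332 to 406), next at 17.3 CPM in CD81- FBs. Slc45a3, Sh3gl3, Wdr17, Klhl4, Gmfg, Pkhd1l1 and Megf6 stood between 105 and 303 CPM in LECs and at no more than 14.8 CPM in any other type. Tbx1, the remaining gene, is a transcription factor and is described with those.

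Of 19 tested transcription factors of endothelial and lymphatic development, 6 were at least 2-fold higher in LECs than elsewhere and 0 were at least 2-fold lower. These were Prox1, Nr2f2, Foxc1, Tbx1, Tal1 and Meox1, and the list's median log2 ratio to the next type was -0.40, against -0.34 over all genes tested. Nr2f2 (COUP-TFII), which acts with Prox1 in lymphatic specification, was at 883 CPM in LECs (828 to 942), at 139 CPM in CD81- FBs and at 70.5 CPM in BECs. Tbx1, a T-box factor needed for lymphatic vessels of the gut, was at 137 CPM in LECs (116 to 161) and had 0 UMIs in BECs. Meox1 was at 185 CPM in LECs (160 to 213) and 44.5 CPM in BECs. Sox18, which switches on Prox1 in the embryo, was at 200 CPM in LECs and 267 CPM in BECs. Its relative Sox17, an arterial factor, had 0 UMIs in LECs, with an upper interval end of 3.46 CPM, and was at 267 CPM in BECs. The flow-responsive factor Klf2 was at 477 CPM in LECs and 1817 CPM in BECs.

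In the VEGF and angiopoietin axis, Flt4 was the 1 gene of 16 that was at least 2-fold higher in LECs than in every other type. Kdr (VEGFR2) was at 624 CPM in LECs (578 to 673) and 920 CPM in BECs. Flt1 (VEGFR1) had 4 UMIs in LECs, or 3.75 CPM, and was at 2600 CPM in BECs, a log2 ratio of -9.44 (-11.32 to -8.07). Of the semaphorin and VEGF co-receptors, Nrp2 was at 527 CPM in LECs, 197 CPM in BECs and 386 CPM in SMCs, and Nrp1 at 28.2 CPM in LECs and 664 CPM in BECs. Tie1 was at 187 CPM in LECs and 119 CPM in BECs, and Tek (Tie2), the angiopoietin receptor, at 124 CPM and 197 CPM. Vegfc was at 9.39 CPM in LECs and highest in SMCs, at 148 CPM, while its processing factor Ccbe1 had 0.939 CPM in LECs. Angpt1 was at 33.8 CPM in LECs and 148 CPM in PDGFRa-hi SEMFs.

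The junctional list separated the endothelia in part. Of 17 tested genes, Cldn5 was at least 2-fold higher in LECs than in every other type and Jam3 at least 2-fold lower. Cldn5, the main endothelial tight junction claudin, was at 1048 CPM in LECs (987 to 1111), with 0 to 19 UMIs per LEC (median 4), and at 96.4 CPM in BECs, a log2 ratio of 3.44 (2.88 to 4.06). Cdh5 (VE-cadherin) was at 361 CPM in LECs and 404 CPM in BECs, a log2 ratio of -0.16 with an interval across 0 (-0.47 to 0.16). Pecam1 was at 582 CPM and 942 CPM, and the sialomucin Emcn at 669 CPM and 693 CPM. Jam2 had 4 UMIs in LECs (3.75 CPM) and was at 226 CPM in BECs, Jam3 was at 2.82 CPM and 178 CPM, and the immunoglobulin-like adhesion molecule Esam at 21.6 CPM and 445 CPM. The BEC values rest on 53 cells and 269665 UMIs.

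Against the 9 genes listed for blood endothelium, LECs were low for 7 by at least 2-fold relative to BECs and high for 1. Over all 15117 genes tested, 1010 were low and 948 high by that rule. Vwf and Esm1 had 0 UMIs in LECs, Rgcc and Flt1 4 each, and Plvap, the protein of fenestral diaphragms, 14 UMIs (13.1 CPM) against 2043 CPM in BECs. Emcn was near level, as above. Aqp1, a water channel, stood at 644 CPM in LECs (597 to 694) and 108 CPM in BECs.

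**Figure D2:**
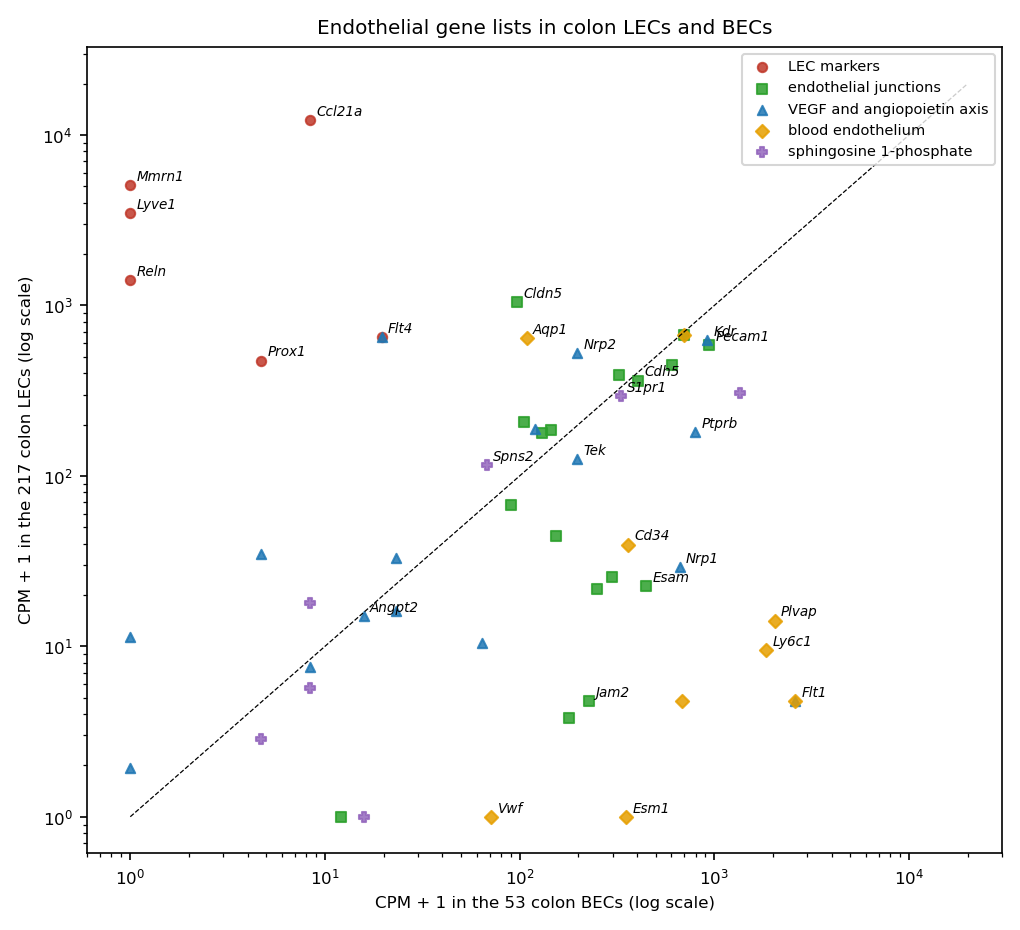
CPM plus 1 in the 217 colon LECs (vertical, log scale) against the 53 colon BECs (horizontal, log scale), with 1 point per gene of 5 lists; the dashed line marks equal levels. Kdr, Pecam1, Cdh5 and S1pr1 lie near the line, Cldn5, Aqp1 and the LEC markers above it, and Flt1, Plvap, Vwf and Esm1 far below.

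Genes through which lymphatic vessels deal with leukocytes formed a mixed group. Of 13 tested chemokines and scavengers, 2 (Ccl21a and Ackr2) were at least 2-fold higher in LECs, and the list's median log2 ratio was -1.85. Ccl19, the other Ccr7 ligand, had 0 UMIs in LECs. Ackr3, a scavenger of Cxcl12 and adrenomedullin, was at 463 CPM in LECs and next at 250 CPM in CD81+ Trophocytes. Ackr4, the scavenger of Ccl21 and Ccl19, had 1 UMI in LECs and was at 312 CPM in CD81+ Trophocytes. Of 7 sphingosine 1-phosphate genes, 0 were 2-fold higher or lower in LECs than in every other type. The lipid exporter Spns2 was at 115 CPM in LECs and 66.7 CPM in BECs, and the receptor S1pr1 at 293 CPM and 330 CPM. Both were under 2 CPM in each of the other 4 types.

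Of 15 tested leukocyte contact and immune signal genes, 2 were at least 2-fold higher in LECs. Il7, the survival cytokine of lymphocytes, was at 202 CPM in LECs (176 to 231), with a UMI in 58.1% of LECs and 7.96% of CD81- FBs and 0 UMIs in BECs. Tnfrsf11a (RANK) was at 57.3 CPM in LECs and 18.5 CPM in BECs. Il33, an alarmin, was at 216 CPM in LECs and 169 CPM in CD81+ Trophocytes. The adhesion molecule Icam1 was at 440 CPM in LECs, 449 CPM in BECs and 459 CPM in CD81+ Trophocytes, and Vcam1 had 14.1 CPM in LECs.

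Of 14 tested scavenger and lipid-handling genes, 4 were at least 2-fold higher in LECs (Lyve1, Stab1, Mrc1 and Gpihbp1). Gpihbp1, known for carrying lipoprotein lipase across capillaries, was at 356 CPM in LECs (70.5% of cells) and 96.4 CPM in BECs. Fatty acid handling lay with BECs: Fabp4 was at 80.7 CPM in LECs and 4202 CPM in BECs, and the fatty acid translocase Cd36 at 16.9 CPM and 441 CPM.

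Of 30 tested secreted signals of the gut stem cell niche, 4 were at least 2-fold higher in LECs: Reln, Rspo3, Fgl2 and Nts. Rspo3, which amplifies Wnt signals to epithelial stem cells, was at 173 CPM in LECs with a UMI in 55.8% of them, next at 60.4 CPM in CD81- FBs. Fgl2, a fibrinogen-like immunoregulatory protein, was at 2486 CPM in LECs (2393 to 2583), with 1 to 46 UMIs per LEC (median 11), and next at 356 CPM in PDGFRa-hi SEMFs. Nts, the precursor of the peptide neurotensin, was at 78.8 CPM in LECs and came from 31 of the 217 cells. In the other 5 types Nts did not exceed 0.157 CPM. Rspo1 and Rspo2 had 0 UMIs in LECs.

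In the guidance list 3 of 21 genes were at least 2-fold higher in LECs. Ntn1, a netrin, was at 710 CPM in LECs and 201 CPM in SMCs, the next type. Sema6a, a transmembrane semaphorin, was at 558 CPM in LECs and 182 CPM in BECs. Sema3d, a secreted semaphorin, was at 276 CPM in LECs and 49.2 CPM in CD81+ Trophocytes. In the basement membrane list Nid2 and Mmrn1 were higher and Col4a2 and Fn1 lower, of 23. Nid2, a nidogen linking laminin to collagen IV, was at 98.6 CPM in LECs and 11.7 CPM in CD81- FBs, the next type.

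Vasoactive and Notch genes gave 3 further members above every other type by 2-fold. Of 13 adrenomedullin and nitric oxide genes these were Ece1, which activates endothelin, at 1055 CPM in LECs and 383 CPM in PDGFRa-hi SEMFs, and Gucy1a1, a subunit of the nitric oxide receptor, at 510 CPM and 201 CPM in SMCs. The adrenomedullin receptor pair did not set LECs apart: Calcrl was at 315 CPM and Ramp2 at 594 CPM, against 271 CPM and 549 CPM in BECs. Of 20 Notch and BMP genes, Notch1 was higher, at 312 CPM in LECs and 141 CPM in BECs, and Id3 and Smad7 were lower. Of 13 coagulation genes, Mmrn1 and F8 were higher, F8 with 18.8 CPM in LECs.

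Of 21 tested genes in which mutations cause inherited lymphoedema in people, 10 were highest in LECs, as were 2959 of all 15117 genes tested, and 3 (Flt4, Ptpn14 and Celsr1) passed 2-fold over every other type. Ptpn14, a phosphatase that restrains Flt4 signalling, was at 291 CPM in LECs and 51.9 CPM in BECs. Of 17 tested valve genes 1 passed 2-fold upwards, Celsr1, a planar polarity cadherin, with 32 UMIs in LECs, and 1 downwards, Fn1 (fibronectin). Foxc2, the valve transcription factor, had a UMI in 14 LECs, Gata2 in 29, Celsr1 in 29, Gja4 in 36 and Cldn11 in 3. Of these 5 genes of the list, 128 LECs had none, 69 had 1, 18 had 2 and 2 had 3.

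Class I presentation genes were at endothelial levels. H2-K1 was at 1453 CPM in LECs and 1695 CPM in BECs, and B2m at 1693 CPM and 1580 CPM, and 0 of 13 presentation genes passed 2-fold over every other type. Cd74, the invariant chain of class II molecules, was at 125 CPM in LECs, 382 CPM in BECs and 11.8 CPM in CD81- FBs. The BEC level came from few cells, and 1 of them held 54 UMIs. At least 1 of Cd74, H2-Aa, H2-Ab1 and H2-Eb1 had a UMI in 89 LECs (41.0%), in 14 BECs (26.4%) and in 13.1% of CD81- FBs, at median depths of 4545, 3821 and 6697 UMIs. The order of LECs and BECs by share of cells is thus the reverse of that by level. All 4 had a UMI in 10 LECs. Of the 8 listed leukocyte genes, 3 had 0 UMIs in LECs, and the 8 summed to 19.7 CPM there. Whether leukocyte RNA contributed was not tested.

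Lists of other origins were low in LECs. The 6 smooth muscle genes summed to 164 CPM in LECs and 22182 CPM in SMCs, with 22.3 CPM in the LECs low in fibroblast transcripts that are defined below. Epithelial genes summed to 0.939 CPM (7 listed; Epcam 0 UMIs), glial and neuronal to 5.63 CPM (4 listed) and mesothelial to 0 (2 listed). Pericyte genes summed to 98.6 CPM, most of it from Kcnj8, a potassium channel subunit, at 77.9 CPM in LECs and 53.7 CPM in PDGFRa-hi SEMFs. Of the 8 cell division genes listed, Mki67 had 2.82 CPM and Top2a 0.939 CPM in LECs. Of 9 tested retinoid and xenobiotic genes 0 were 2-fold higher in LECs, and Tiparp was lower.

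Most genes of the immediate early and heat shock list were low in LECs. Of 14 such genes, 11 had their lowest level of the 6 types in LECs, as had 2507 of all 15117 genes tested. The AP-1 subunit gene Fos was at 709 CPM in LECs and between 1257 CPM (PDGFRa-hi SEMFs) and 4054 CPM (CD81+ Trophocytes) elsewhere. Fosb and Nr4a1 were at least 2-fold below every other type. The list's median log2 ratio to the next type was -2.29. Heat shock genes did not all follow. In cells with Xist UMIs alone, a set used below, Hspb1 was at 753 CPM in LECs and 192 CPM in CD81- FBs. Hspa1b was at 1859 CPM and 1140 CPM there. In cells with Y-linked UMIs alone Hspb1 was at 209 CPM and 134 CPM, and Hspa1b at 708 CPM and 1089 CPM.

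Fibroblast transcripts were present in the LECs, and almost entirely in a few of them. Dcn, the collagen-binding proteoglycan of fibroblasts, was at 847 CPM in LECs and 8400 CPM in CD81- FBs. Of its 902 UMIs in LECs, 586 were in 10 cells. Over 8 fibroblast genes (Dcn, Lum, Col1a1, Col1a2, Col3a1, Pdgfra, Adamdec1 and Cxcl13) the LECs had 0 to 198 UMIs per cell (median 1, upper quartile 3). A gap parted 19 LECs with 55 or more from 198 LECs with 25 or fewer, and a limit of 30, chosen after these values were seen, fell inside it. The 19 cells (8.76%) held 87.1% of the 2537 UMIs. Their median depth was 9621 UMIs against 4446.5 in the 198. UMIs of both Xist and Y-linked genes, which come from female and male cells, occurred in 5 of the 19 (26.3%, 9.15 to 51.2%) and in 3 of the 198 (1.52%, 0.314 to 4.36%). The UMIs of the 6 LEC markers had a median of 94 per cell in the 19 and 112.5 in the 198.

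**Figure D3:**
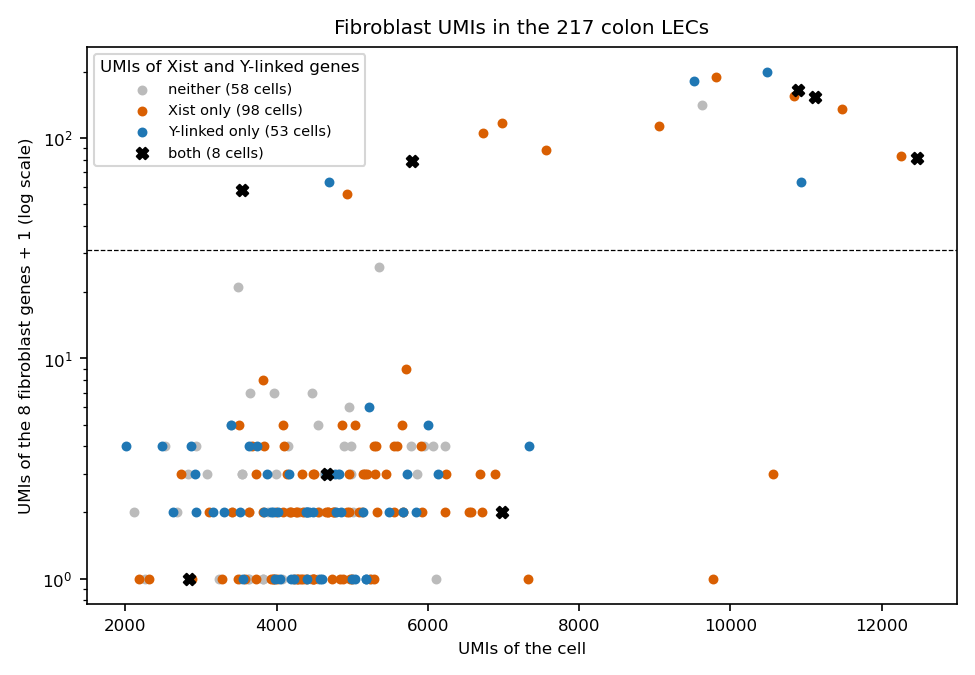
UMIs of 8 fibroblast genes plus 1 (log scale) against the UMIs of the cell, for each of the 217 colon LECs, coloured by whether Xist or Y-linked UMIs were seen; the dashed line marks the limit of 30. The 19 cells above the line have a median of 9621 UMIs and include 5 of the 8 cells with both kinds of UMI.

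These values bear on which LEC transcripts are fibroblast background. In all LECs the 8 genes stood at 9.47 to 15.8% of their level in the pooled fibroblasts (median 11.1%), and in the 198 at 0.421 to 2.65% (median 1.67%). Without the 19 cells Dcn was at 139 CPM. Bmp4, a niche signal of fibroblasts, went from 96.7 CPM to 12.3 CPM, Bmp5 from 68.5 CPM to 16.7 CPM, and the chemokine Cxcl12 from 256 CPM to 103 CPM. Nrp1 went from 28.2 CPM to 1.12 CPM and Rbp4, a retinol carrier, from 49.7 CPM to 1.12 CPM. Lymphatic genes moved the other way: Prox1 went to 521 CPM, Ccl21a to 13279 CPM, Il7 to 216 CPM and Rspo3 to 184 CPM. The count of genes at least 2-fold lower in LECs than in every other type depends on these cells: it was 110 with them and 298 without, and the count of those higher was 288 and 331. In the small intestine 26 of 2498 LECs (1.04%) passed the limit. Whether the 19 droplets held 2 cells was not tested.

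Among themselves the LECs were compared after each was thinned to 2000 UMIs at random, which kept all 217. Of the 10 genes with the largest variance relative to the mean (Fano factor) at a mean of at least 0.1, several were fibroblast genes. Dcn had a Fano factor of 10.1, which was 2.03 without the 19 cells. Gsn, an actin-severing protein abundant in fibroblasts, went from 16.3 to 3.63, Adamdec1 from 12.6 to 0.883, and Apoe, a lipid carrier, from 16.9 to 2.31. Others kept their spread: Ccl21a had 7.95 and 7.45, the heat shock gene Hspa1a 5.62 and 6.10, and Fos 5.48 and 5.84. Lars2 had 12.6 and 13.6, with 13.0% of its LEC UMIs in 1 cell. Gm42418, which overlaps ribosomal RNA repeats, had 20.3 and 19.9, and made up 10.3% of the UMIs of LECs and 7.70 to 8.93% in the other colon types.

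Igfbp5, which binds insulin-like growth factors, also varied widely between LECs. It ranged from 0 to 100 UMIs per LEC (median 12), with a Fano factor of 5.35, and stood at 3434 CPM in LECs against 820 CPM in CD81- FBs, the next type. It was higher where Ptn, a heparin-binding growth factor, was seen: 5055 CPM in the 63 LECs with a Ptn UMI and 2711 CPM in the rest, at median depths of 4498 and 4545 UMIs. Over the 198 LECs low in fibroblast UMIs, cells of 1 library, Spearman's rho was 0.42 between Igfbp5 and Ptn and 0.47 between Igfbp5 and Igfbp3, another binding protein. It was -0.08 between Ccl21a and Lyve1. Igfbp3 was chosen for this description after its values were seen, as was Thy1, a surface glycoprotein of fibroblasts and some lymphatic vessels, at 342 CPM in LECs (74.2% of cells), 42.1 CPM in CD81- FBs and 18.5 CPM in BECs.

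The colon library held RNA of cells of both sexes. Xist UMIs with no Y-linked UMI were found in 98 LECs and Y-linked with no Xist UMI in 53, 8 LECs had both and 58 neither. Nothing in the labels says how many animals these came from, so sex and animal cannot be told apart. Of 2569 genes with at least 50 UMIs in the 2 sets, 56 were over 2-fold higher in the Xist set (2.18%) and 10 over 2-fold lower (0.389%). Markers were near level: Ccl21a was at 10896 CPM in the Xist set and 14149 CPM in the Y-linked set, a log2 ratio of -0.38 (-0.44 to -0.32), and Lyve1 at 3840 CPM and 3017 CPM, a log2 ratio of 0.35 (0.23 to 0.47).

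Immediate early and heat shock genes divided the sets: 8 of the 13 tested were over 2-fold higher in the Xist set and 0 lower. Fos had 544 UMIs in 98 LECs (1076 CPM) and 52 in 53 LECs (209 CPM), a log2 ratio of 2.36 (1.95 to 2.80). A Fos UMI was seen in 62.2% and 39.6% of the cells, with at most 58 and 9 UMIs in 1 cell. Hspa1a was at 2339 CPM and 845 CPM, a log2 ratio of 1.47 (1.26 to 1.69), and Gadd45b, a stress-induced growth arrest gene chosen after its values were seen, at 405 CPM and 96.6 CPM. In CD81- FBs the same split gave log2 ratios of 0.10 (0.07 to 0.14) for Fos and 0.22 (0.19 to 0.25) for Hspa1a. For Fos, PDGFRa-hi SEMFs had 0.21 (0.14 to 0.28) and SMCs 0.36 (0.19 to 0.53). In CD81+ Trophocytes Fos had -0.53 (-0.57 to -0.49) and in BECs -0.32 (-0.56 to -0.07). In BECs 123 of the 228 UMIs of the Y-linked set were in 1 of 11 cells. The difference between types was not tested. The median depths of the LEC sets were 4752.5 and 4408 UMIs.

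Class II genes differed in the same direction, on fewer UMIs. Cd74 had 101 UMIs in the Xist set and 4 in the Y-linked set, a log2 ratio of 3.63 (2.23 to 5.54), and at most 23 of the 101 came from 1 cell. H2-Aa had 42 and 6 UMIs, H2-Eb1 52 and 11, and H2-Ab1 42 and 13, the last with an interval across 0 (-0.26 to 1.69). At least 1 of the 4 genes was seen in 48.0% of the Xist set (37.8 to 58.3%) and 22.6% of the Y-linked set (12.3 to 36.2%). In CD81- FBs all 4 genes went the same way, with smaller ratios than in LECs. The log2 ratios there were 0.95 (0.52 to 1.39) for Cd74 and 1.09 (0.51 to 1.71) for H2-Aa. They were 0.98 (0.48 to 1.51) for H2-Eb1 and 0.48 (0.03 to 0.95) for H2-Ab1. The LEC interval contained the CD81- FB ratio for H2-Aa (0.54 to 3.31), H2-Eb1 (0.26 to 2.30) and H2-Ab1, but not for Cd74. In BECs Cd74 was at 266 CPM and 1161 CPM over 22 and 11 cells, but 54 of the 66 UMIs of the 11 cells were in 1 cell. Apoe was higher in the Y-linked LECs, 68 UMIs against 28, but 45 of the 68 were in 1 cell.

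**Figure D4:**
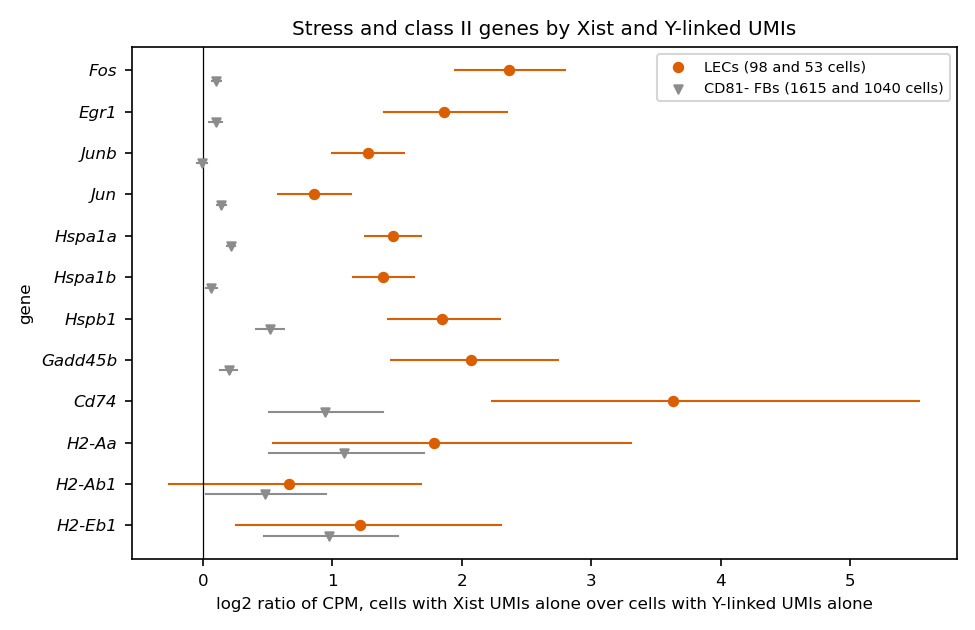
log2 ratio of CPM between cells with Xist UMIs alone and cells with Y-linked UMIs alone, for 12 stress and class II genes (rows), in LECs (circles) and CD81- FBs (triangles); bars are 95% intervals for counting error. The Fos ratio is 2.36 in LECs and 0.10 in CD81- FBs, and the H2-Ab1 interval in LECs includes 0.

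Colon LECs were then set beside the 2498 LECs of the small intestine (median 4117.5 UMIs), whose villus capillaries, the lacteals, take up fat. Xist is not listed for that library, and Y-linked UMIs were found in 1623 of its LECs and not in 875. In the colon 98 LECs had Xist UMIs alone and 53 Y-linked UMIs alone. Digestion took 45 min in the small intestine and 60 min in the colon. Tissue, sex, animals and digestion thus cannot be told apart. The 9169 genes with 100 UMIs or more, summed over both sets of LECs, had a median log2 ratio of -0.27. Over 2-fold higher in the colon were 187 genes (2.04%) and over 2-fold lower 705 (7.69%). Among LECs with under 30 fibroblast UMIs in both libraries the counts were 116 and 720, so the higher count depends on the LECs rich in fibroblast UMIs. Centred on the median gene the counts were 322 and 312. Centring itself evens out the directions, so what the split rests on was not tested by it. Gm42418 made up 10.3% of UMIs in colon LECs and 0.369% in small intestinal LECs. With it and 5 further such genes (AY036118, Lars2, Cmss1, Cdk8 and Camk1d) left out of the totals, a choice made after seeing the data, the median was -0.077 and the counts were 245 and 457. Ratios below are best read against these medians.

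Of the 6 markers, 0 were over 2-fold higher in the colon and 1, Reln, over 2-fold lower, at 1399 CPM and 3273 CPM. Ccl21a was at 12171 CPM in colon and 7839 CPM in small intestinal LECs, Flt4 at 653 CPM and 1026 CPM, and Prox1 at 473 CPM and 804 CPM. Of 18 tested lymphatic transcription factors and of 15 junction genes, 0 passed 2-fold in either direction.

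The genes highest in colon LECs, besides Tgfbi, Ptn and Stmn2, were of several kinds. Igfbp5 was at 3434 CPM here and 714 CPM in small intestinal LECs, with a log2 ratio of 2.27 (2.21 to 2.32), with a UMI in 96.3% and 52.2% of LECs. Htr2b, a serotonin receptor, was at 64.8 CPM and 6.96 CPM, a log2 ratio of 3.22 (2.73 to 3.70). Ddah1, which degrades an inhibitor of nitric oxide synthase, was at 113 CPM and 16.1 CPM, and Sncg, a synuclein, at 132 CPM and 27.9 CPM. Ddit4, a stress-induced mTOR inhibitor, was at 201 CPM and 57.0 CPM, Ahnak2 at 185 CPM and 41.9 CPM, and Gm11290 at 49.7 CPM and 7.58 CPM. From the lists, Ackr2 was at 178 CPM and 66.7 CPM, and Id1, a BMP target, at 373 CPM and 64.9 CPM. Outside the LECs Id1 differed in the same direction, with 229 CPM over the remaining colon cells against 46.4 CPM for small intestine. Whether the differences of list members were particular to LECs was not tested. Ptn was at 146 CPM in the 198 colon LECs low in fibroblast UMIs, where Bmp4, also over 2-fold higher in all colon LECs, was at 12.3 CPM beside 11.5 CPM in all small intestinal LECs.

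The genes lowest in colon LECs, besides Cyp26b1, Cyp1b1 and Wnt2, were of several kinds. Fabp4, a fatty acid chaperone, was at 80.7 CPM here and 745 CPM in small intestinal LECs, with a log2 ratio of -3.21 (-3.53 to -2.90) and a UMI in 18.9% of colon LECs. Ltc4s, the leukotriene C4 synthase, was at 22.5 CPM and 246 CPM. St6galnac3, a sialyltransferase, was at 94.8 CPM and 872 CPM. Eda, the ectodysplasin ligand, was at 81.7 CPM and 795 CPM, the endosomal exchanger Slc9a9 at 72.3 CPM and 627 CPM, and the metalloprotease Adam12 at 6.57 CPM and 122 CPM. Ahrr, the repressor of the aryl hydrocarbon receptor, had 1 UMI in colon LECs (0.939 CPM) and was at 71.6 CPM, a log2 ratio of -6.25 (-11.56 to -3.77). The receptor gene Ahr differed less, at 88.2 CPM and 166 CPM, and Tiparp, another target of that receptor, was at 36.6 CPM and 121 CPM.

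**Figure D5:**
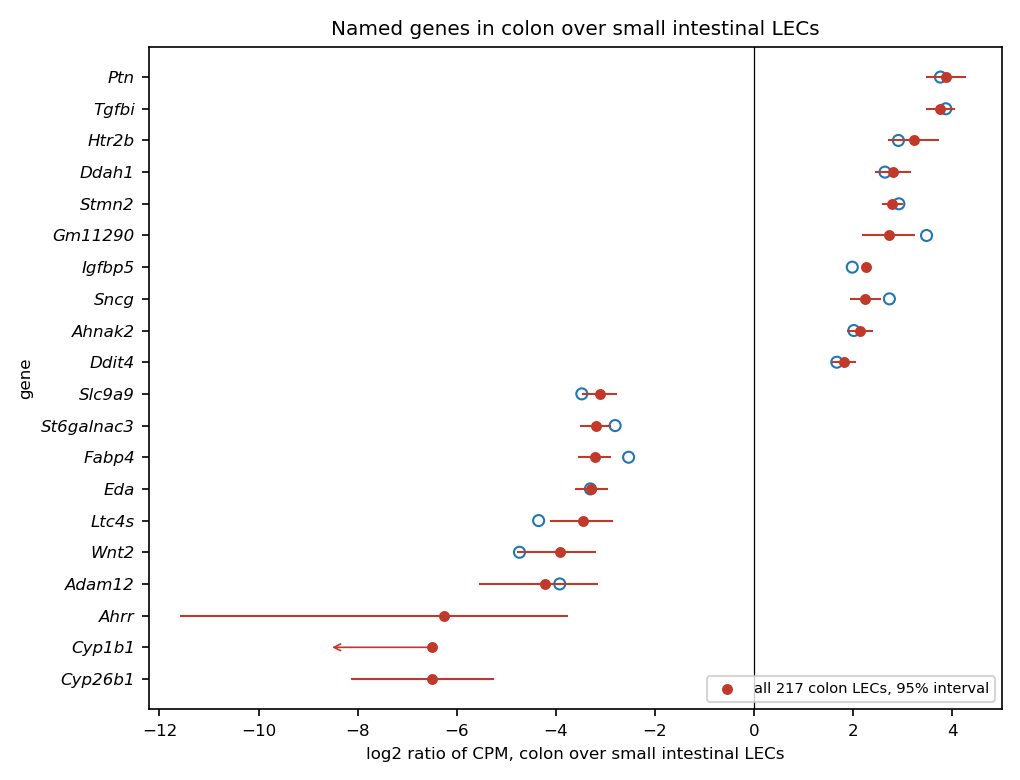
log2 ratio of CPM in colon over small intestinal LECs for 20 named genes (rows); filled points use the 217 colon LECs with 95% intervals for counting error, and open circles the 53 colon LECs with Y-linked UMIs alone, left out for 3 genes with 0 UMIs there. Cyp1b1, with 0 UMIs in colon LECs, is drawn at its upper bound with an arrow. The open circles lie on the same side of 0 as the filled points.

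The lists are given with the median log2 ratio over all genes tested at -0.20 after adding 10 CPM. Of the 8 fibroblast genes 5 were over 2-fold higher in all colon LECs, where the 8 summed to 2381 CPM. Their sum was 366 CPM in the 198 colon LECs low in fibroblast UMIs and 899 CPM in all small intestinal LECs. The direction thus depends on the 19 cells. Of 14 immediate early and heat shock genes, 10 were over 2-fold lower in the colon and 0 higher, with a median log2 ratio of -1.30. Fos was at 709 CPM in colon and 2035 CPM in small intestinal LECs, and the zinc finger protein gene Zfp36 at 145 CPM and 818 CPM. Colon LECs with Y-linked UMIs alone had Fos at 209 CPM, farther below. Of 13 presentation genes 3 were lower (H2-K1, H2-Q4 and H2-T23) and 0 higher, with H2-K1 at 1453 CPM and 3501 CPM. Of 17 guidance genes 6 were lower and 1 higher, with Plxna4 at 123 CPM and 325 CPM. Of 12 scavenger and lipid genes 4 were lower and 3 higher. Stab1 was at 255 CPM and 647 CPM, Mrc1 at 106 CPM and 254 CPM, and Stab2, a hyaluronan scavenger, at 5.63 CPM and 64.0 CPM. Lrp1, Colec12 and Cd44 were the higher ones. In the 198 colon LECs low in fibroblast UMIs Lrp1 was at 11.2 CPM, beside 14.6 CPM in all small intestinal LECs. Colec12 was at 65.8 CPM beside 30.3 CPM, and Cd44, another hyaluronan receptor, at 37.9 CPM beside 4.28 CPM. The limit on fibroblast UMIs was not applied to these small intestinal values. Of 11 VEGF and angiopoietin genes 3 were lower, with Nrp2 at 527 CPM and 1499 CPM, and Nrp1 was higher, though at 1.12 CPM in the 198. Of 14 immune signal genes 4 were lower, with the interleukin 1 receptor Il1r1 at 37.5 CPM and 298 CPM, and Il6st was higher.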

How the data were processed

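Stromal cells of the mouse colon and small intestine were profiled as 1 single-cell library each; the labels state no replicate. The authors deposited raw UMI counts per gene and cell, the same values on a natural log scale and a cell type label per cell. Checked on LECs, the deposited natural log values equalled ln(1 + UMIs × 10000 / UMIs of the cell). Cell Ranger 7.1.0, Seurat 4 and build mm10 are named in the submitters' processing notes; the method behind the labels and any filter on cells are not given in the sources used here. Members and gene lists were chosen with earlier results of these data known.

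UMIs were summed per label with Python 3.11.15, numpy 2.4.6, scipy 1.17.1 and pandas 2.3.3. Before a 2-fold rule was applied, 10 CPM were added; a gene with 0 UMIs enters a bare ratio at a floor of 3 counts, as a bound. Named were the markers, the 25 leading genes, the list members behind a count, the 10 highest and 10 lowest genes between tissues, and the 10 most variable genes. Between tissues, the 10 highest and 10 lowest genes needed 100 UMIs over the LECs of both libraries together. They also needed a UMI in 10% or more of LECs of the higher library. Their CPM there had to be 2 times or more that of the remaining cells. List members such as Id1 were named without this last limit. Rankings omitted Xist, Tsix, Y-linked and mitochondrial genes and those of haemoglobin, immunoglobulins and ribosomal proteins. Intervals were tested on simulated Poisson counts. These lack the spread between cells seen in the LECs, so that spread was not covered. No doublet caller was run, and any earlier removal of doublets is not given in the sources used here. Of the 10 most variable genes, 1 is not reported here.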

Additional observations from a re-analysis of the deposited data

Results flagged for a closer look

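In the colon, 1 of the 4 cells labelled Proliferating, a label outside the comparisons above, carried 5 of the 6 LEC markers, with 44 Ccl21a UMIs among its 4963. It had 8 Lyve1, 5 Mmrn1, 2 Reln and 1 Flt4 UMIs, 0 of Prox1 and of Dcn, and 1 Mki67 UMI. In CD81- FBs Ccl21a had a UMI in 3.11% of cells.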

How the results depend on the processing

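All 6 markers stayed highest in LECs under 5 alternatives; requiring at least 3 of the 6 markers removed no colon LEC and so tested nothing for colon values. The LEC share was 3.03% among cells with Y-linked UMIs alone. Dcn in LECs was at 579 CPM with each cell weighted equally, 453 CPM without the 6% of LECs with the most UMIs, 688 CPM in cells with Y-linked UMIs alone and 139 CPM without the LECs rich in fibroblast UMIs. The count of genes 2-fold higher was 444 with 1 CPM added and 144 with 50 CPM, and that of genes lower 535 and 23; the latter was 233 without the 6% with the most UMIs and 298 without the fibroblast-rich LECs. Between tissues, 892 genes passed 2-fold, 1387 against the LECs with Y-linked UMIs alone, 1601 with 1 CPM added and 257 with 50 CPM. The median ratio was -0.077 without Gm42418 and 5 further genes. Genes with a Fano factor of at least 2 numbered 88, and 28 after thinning to 1000 UMIs. Thinning lowers the mean of a gene and any Fano factor above 1, while the limits of 0.1 and 2 stayed the same. The counts of 88 and 28 thus do not rest on like limits. Of 245 values of single genes under alternatives, 0 changed direction, but 60 lay outside the interval of the main value. These 45 genes were picked for large ratios in the same data, so a change of direction was unlikely from the start. For Gpm6a the log2 ratio to the next type was 10.9. The difference between means of the natural log values, in log2 units, was 1.91. A constant is added before those logs are taken, so this difference is not a log2 ratio of CPM. Such differences lay outside the interval for each of the 45 genes, and make up 45 of the 60 values. Those 45 rest on an unlike scale and do not test how stable the ratios are. The limit of 30 fibroblast UMIs, the totals without Gm42418 and the tissue ratios of single genes within Y-linked cells were chosen after seeing the data. No paired analysis was possible because each group has 1 library. Depth limits the detection of sparse genes such as Foxc2, and the 53 BECs limit every contrast with blood endothelium.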
